A study of Mus musculus with 20 samples.

Results

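The enzymes that methylate transfer RNA (tRNA) in mouse liver were followed at the transcript level across 4 exposure groups, together with Trmt112, the small subunit that several of them need, and Bud23, a partner of Trmt112 that acts on ribosomal RNA. The 10 genes (Trmt1, Trmt1l, Trmt5, Trmt6, Trmt61a, Trmt10a, Trmt10c, Trmt11, Trmt112 and Bud23) were taken by symbol from the 21780 genes of the count table, and all 10 had enough counts to be tested. Polyadenylated RNA was sequenced from the livers of 20 male C57Bl/6J mice, with 5 mice in each group. Every mouse, the controls included, received a high-fat diet (HFD, 42% of kCal from fat) for 12 weeks from 8 weeks of age. The mice were gavaged once, at 10 weeks of age, with corn oil (HFD control), with Aroclor 1260 (HFD + Aroclor, 20 mg/kg, a commercial mixture of mostly non-dioxin-like polychlorinated biphenyls, PCBs), with PCB 126 (HFD + PCB 126, 20 µg/kg, a dioxin-like congener) or with both at these doses (HFD + Aroclor + PCB 126, the combined exposure). The study's methods give 10 weeks between gavage and harvest, and the sample labels give 12 weeks of treatment. There was no group on a control diet, so all values are for mice on the HFD. The livers were whole tissue, in which fewer cells of a type and less RNA per cell cannot be told apart.

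A tRNA carries many methyl groups, which stabilise its fold or tune how its anticodon reads the message. Trmt6 and Trmt61a form the enzyme that makes 1-methyladenosine in the T-loop, with Trmt61a as the catalytic subunit. Trmt1 makes N2,N2-dimethylguanosine between the D-arm and the anticodon stem, and Trmt1l is its paralog. Trmt5 methylates the guanosine next to the anticodon, and Trmt10a and Trmt10c methylate purines near the start of the tRNA body in the cytosol and in mitochondria. Trmt11 makes N2-methylguanosine and is active only with Trmt112, which also holds Bud23, the N7-guanosine methyltransferase of 18S rRNA, in an active form.

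The start sites of several members are shown because the exposure includes a dioxin-like PCB that acts through a DNA-binding receptor. RefSeq sequences of 250 bases before to 50 bases after the start site (GRCm38.p6) were found for 8 of the 10 members, with 10 start sites in all. Trmt1 and Trmt6 were not matched. Each sequence was searched on both strands for the dioxin response element (TNGCGTG), the E-box (CACGTG), an ETS motif (CCGGAAG), the cyclic AMP response element (CRE, TGACGTCA), a YY1 motif (AAGATGGC), the GC box (GGGCGG) and the TATA box (TATAAA), and capitals mark the matches. Trmt1l (chr1:151428292-151428591, plus strand) and the pair Trmt112 (chr19:6909448-6909747, plus strand) and Bud23 (chr5:135064910-135065209, minus strand) are printed because the results turn on them, and Trmt61a (chr12:111677855-111678154, plus strand) because it was the member with a dioxin response element.
Trmt1l: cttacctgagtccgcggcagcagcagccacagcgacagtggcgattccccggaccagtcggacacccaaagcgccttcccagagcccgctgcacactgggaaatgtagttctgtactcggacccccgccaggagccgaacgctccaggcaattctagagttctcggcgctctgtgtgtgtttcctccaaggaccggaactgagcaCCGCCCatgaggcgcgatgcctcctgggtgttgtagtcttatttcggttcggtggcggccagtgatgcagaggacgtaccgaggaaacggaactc
Trmt112: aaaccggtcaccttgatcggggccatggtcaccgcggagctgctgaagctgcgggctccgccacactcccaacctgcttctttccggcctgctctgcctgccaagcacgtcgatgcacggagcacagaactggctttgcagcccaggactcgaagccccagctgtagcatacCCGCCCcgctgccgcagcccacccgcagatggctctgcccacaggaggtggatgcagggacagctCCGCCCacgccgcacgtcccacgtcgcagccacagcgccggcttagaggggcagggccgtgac
Bud23: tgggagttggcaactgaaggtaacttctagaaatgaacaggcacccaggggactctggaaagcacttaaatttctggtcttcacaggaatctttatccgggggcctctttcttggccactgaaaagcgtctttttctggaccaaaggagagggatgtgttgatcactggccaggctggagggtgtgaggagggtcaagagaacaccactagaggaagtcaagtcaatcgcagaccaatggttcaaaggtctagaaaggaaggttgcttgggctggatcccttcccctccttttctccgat
Trmt61a: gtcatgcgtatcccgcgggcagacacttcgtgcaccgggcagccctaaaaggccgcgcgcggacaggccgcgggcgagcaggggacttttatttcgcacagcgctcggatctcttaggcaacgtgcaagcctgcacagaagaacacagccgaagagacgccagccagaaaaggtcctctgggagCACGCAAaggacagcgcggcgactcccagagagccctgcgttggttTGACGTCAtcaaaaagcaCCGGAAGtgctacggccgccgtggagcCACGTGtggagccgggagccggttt

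The Trmt61a sequence held a dioxin response element on the minus strand at position −66 from the start site, a CRE at −20, an ETS motif at −2 and an E-box at 26. A dioxin response element was found in 1 of the 10 member start sites, and in 5.07% of all 32851 mouse start sites. A CRE was found in 2 (Trmt5 and Trmt61a), against 1.79% of all start sites, and an ETS motif in 4, against 8.86%. A GC box was found in 6 member start sites (Trmt1l, Trmt112, Trmt10c, Trmt11 and 2 of the 3 of Trmt10a), against 35.7% of all start sites, and the Bud23 sequence held none of the motifs. The 2 Trmt10a windows overlap and hold the same GC box, so this box was counted in both. No member sequence held a TATA box, found in 13.6% of all start sites, or the YY1 motif, found in 2.75%. These matches are descriptions of the letters in this window.

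In HFD control, counted per kilobase of exon (FPKM), the order from the highest mean was Trmt10c with 7.01 ± 2.15 FPKM (SD, n = 5 mice), Trmt112 with 6.10 ± 1.23, Bud23 with 5.27 ± 0.537, Trmt1 with 4.46 ± 0.468, Trmt5 with 3.99 ± 0.396, Trmt1l with 3.67 ± 0.542, Trmt6 with 2.54 ± 0.0962, Trmt61a with 1.49 ± 0.439, Trmt11 with 1.04 ± 0.0824 and Trmt10a with 0.616 ± 0.0412. From Trmt10c to Trmt1l, the mice of each gene overlapped with those of the next in the order, so these neighbours were not separated by the spread between mice. Trmt6 lay below Trmt1l and above Trmt61a in every control mouse, and Trmt10a lay below Trmt11 in every control mouse. Trmt11 overlapped with Trmt61a. The catalytic subunit Trmt61a was thus lower per kilobase than its partner Trmt6 in each control mouse. Exon length was taken over all annotated exons of a gene, and this order carries no correction for GC content.

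The exposure was checked on 3 cytochrome P450 genes. Cyp1a2, a dioxin-responsive cytochrome P450, was at 386.6 ± 99.4 CPM (counts scaled to library size by the TMM method; SD, n = 5) in HFD control, at 384.6 ± 76.2 CPM with Aroclor, at 1590 ± 606 CPM with PCB 126 and at 775 ± 186 CPM with the combined exposure, higher than in HFD control with PCB 126 (log2FC 2.04; edgeR adjusted p = 0.000294) and with the combined exposure (log2FC 1.00; edgeR adjusted p = 0.00325), and both calls held after GC correction (2.10, edgeR adjusted p = 0.00118, and 1.09, edgeR adjusted p = 0.0207). Cyp1a1, the classical dioxin-responsive gene, was at 0.612 ± 0.284 CPM in HFD control and 78.6 ± 134 CPM with PCB 126 (log2FC 6.93; edgeR adjusted p = 0.0095), but at only 1.32 ± 0.746 CPM with the combined exposure, which did not pass (log2FC 1.06; edgeR adjusted p = 0.502). Cyp2b10, a target of the xenobiotic receptor CAR, averaged 3.54 ± 2.84 CPM in controls, against 14.0 ± 10.7 CPM after Aroclor alone and 11.7 ± 8.98 CPM after both agents, and passed in neither (log2FC 1.97, edgeR adjusted p = 0.222, and 1.72, edgeR adjusted p = 0.0831). The total count was 21836506 to 36854887 per library. A second property separated the libraries, namely the relation of their counts to the GC content of transcripts. The GC slope, the change of log2 CPM relative to the mean of all libraries per 10 percentage points of GC content, was 0.0853 to 0.423 in HFD control, −0.0954 to 0.11 with Aroclor, −0.0975 to 0.352 with PCB 126 and −0.543 to −0.121 with the combined exposure. The slopes of the combined exposure did not overlap with those of HFD control or of either single exposure. The combined exposure and this property of the libraries thus cannot be told apart by the design. The member values are therefore given with and without a correction for GC content. The hepatocyte markers (6 genes, none at 0) summed to 70091 to 101968 CPM over all libraries. The summed stellate cell markers (5 genes, none at 0) were 121 to 233 CPM in HFD control and 255 to 317 CPM with the combined exposure, without overlap, with 3 of the 5 called higher and 1 lower before GC correction and 0 after it. Of the hepatocyte markers, 3 were called lower with the combined exposure before GC correction and 1 (Ttr) after it. The part of these markers in the member values was not tested. The sums of Kupffer cell, endothelial, cholangiocyte and leukocyte markers overlapped between these groups.

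**Figure D1:**
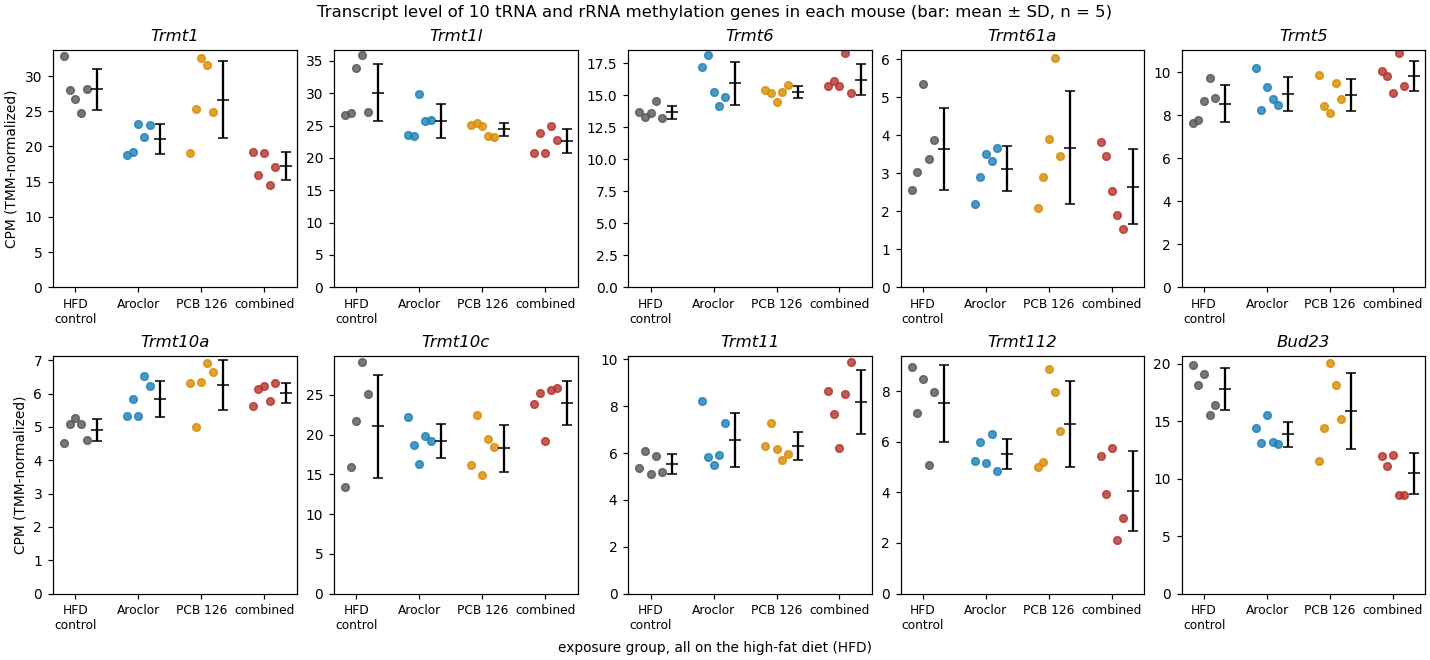
Level of each member in every mouse, in CPM on an axis from 0, by exposure group (5 points each, with the mean ± SD of 5 mice to their right). Trmt1, Trmt1l and Bud23 were lower, and Trmt6, Trmt10a and Trmt11 higher, in every mouse of the combined exposure than in every HFD control mouse. Of all tested genes, 18.8% were separated in this way in one direction or the other. The 5 Trmt112 values with the combined exposure reach from 2.11 to 5.77 CPM against 5.09 to 8.96 in HFD control.

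Before GC correction, members were called against HFD control only with the combined exposure by edgeR. Relative to HFD control, 4 members fell (Trmt1, Trmt1l, Trmt112 and Bud23) and 3 rose (Trmt6, Trmt10a and Trmt11), so 7 of 10 passed an adjusted p under 0.05 in the quasi-likelihood test of edgeR (Benjamini-Hochberg adjusted across every tested gene). In this comparison 32.8% of all 15522 tested genes passed, 15.8% higher and 17% lower. The median log2 fold change (log2FC) of the members was −0.11, and that of all tested genes was −0.001. After GC correction (a curve of log2 CPM on transcript GC content, fitted library by library, was taken out), 1 member passed (Trmt1l, lower), while 1.92% of all genes passed as higher and 2.38% as lower. When that trend was instead fitted over the genes with a mean of at least 1 CPM, a choice made after the calls of the first correction had been seen, Trmt1l, Bud23 and Trmt1 passed, all lower, against 9.14% of all genes in either direction. With the GC slope as a covariate, 0 members and 335 genes were called with the combined exposure. With PCB 126 that setting called 1 member (Trmt1l) and 676 genes. The number of members called after GC correction therefore depends on how the trend is fitted, and Trmt1l is the member called under both trends.

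Trmt1l, the paralog of Trmt1 (ENSMUSG00000053286, chromosome 1, 151428542 to 151458161, plus strand, GRCm38), was at 26.6, 26.9, 33.9, 35.9 and 27.1 CPM in the 5 HFD control mice. It was at 20.7, 23.9, 20.8, 24.9 and 22.7 CPM in the 5 mice of the combined exposure. All combined-exposure mice lay below all control mice, as 18.8% of all genes also did in one direction or the other. The log2FC was −0.41 (standard error, SE, 0.0988; edgeR adjusted p = 0.00407). Single exposures gave intermediate means, of 25.7 ± 2.6 CPM (SD, n = 5) with Aroclor and 24.4 ± 1.02 CPM with PCB 126. The 5 PCB 126 mice, at 23.3 to 25.4 CPM, were also all below the control mice, as 2.14% of all genes were separated in this comparison, but the log2FC of −0.30 did not pass the test (SE 0.0985; edgeR adjusted p = 0.184), nor did that of −0.23 with Aroclor (SE 0.0983; edgeR adjusted p = 0.253).

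The fall of Trmt1l ran against the trend of its GC content. Its transcripts have a GC content of 46.2%, and among the 1689 tested genes between 46% and 48% the median log2FC with the combined exposure was 0.19, with 19.8% called higher and 2.37% called lower. GC correction left Trmt1l at −0.66 (SE 0.0968; edgeR adjusted p = 0.00307), with 19.2 to 22.2 corrected CPM in the combined exposure and 29.2 to 38.5 in HFD control, and was the 1 member whose corrected values did not overlap, against 5.35% of all genes. The corrected Trmt1l values with the combined exposure were also all below those with PCB 126 (24.1 to 28.4 CPM) and with Aroclor (23.1 to 31.1 CPM), as 4.15% and 2.18% of all genes were separated in one direction or the other. With the trend over genes of at least 1 CPM it was −0.68 (edgeR adjusted p = 0.000992). With the GC slope as a covariate it was −0.62 and did not pass (edgeR adjusted p = 0.0579), and with the slope computed over genes of at least 1 CPM it was −0.63 and passed (edgeR adjusted p = 0.022). In the 20 fits that left out 1 library each, the uncorrected log2FC stayed between −0.50 and −0.34 and passed in all 20. Trmt1l shares 158 exon bases, 1.92% of its exon length, with Rnf2 on the opposite strand, and Rnf2 was higher with the combined exposure before GC correction (log2FC 0.51; edgeR adjusted p = 0.0461) and not after it (0.07; edgeR adjusted p = 0.836).

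Bud23 and Trmt112, the enzyme and its stabilising subunit, were both lower with the combined exposure. Bud23 (ENSMUSG00000005378, chromosome 5, 135052957 to 135064959, minus strand) was at 19.9, 18.2, 19.1, 15.5 and 16.5 CPM in the control mice and at 12.0, 11.1, 12.1, 8.54 and 8.57 CPM with the combined exposure. The groups did not overlap, as for 18.8% of all genes, and the log2FC was −0.77 (SE 0.137; edgeR adjusted p = 0.00103). Trmt112 (ENSMUSG00000038812, chromosome 19, 6909698 to 6911049, plus strand) was at 8.96, 7.13, 8.47, 5.09 and 7.95 CPM in the control mice and at 5.46, 3.92, 5.77, 2.11 and 2.97 CPM with the combined exposure. Here 1 control mouse lay below the 2 highest mice of the combined exposure, and the log2FC was −0.90 (SE 0.229; edgeR adjusted p = 0.00589). After GC correction Bud23 was at −0.38 (SE 0.112; edgeR adjusted p = 0.055) and Trmt112 at −0.50 (SE 0.196; edgeR adjusted p = 0.138), and neither passed. With the trend over genes of at least 1 CPM, Bud23 was at −0.33 and passed (edgeR adjusted p = 0.0279), and Trmt112 was at −0.45 and did not (edgeR adjusted p = 0.0926).

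The counts of Trmt112 may have gained or lost reads where its exons overlap those of its neighbours. Whether the counting used strand is not given in the sources used here, and neither is how shared reads were assigned. Of its 1233 exon bases, 409 (33.2%) are shared with Prdx5, a peroxiredoxin, and 73 (5.92%) with Esrra, an orphan nuclear receptor, both on the opposite strand. Prdx5 was far more abundant, at 222.7 ± 48.2 CPM (SD, n = 5) in HFD control and 126.6 ± 33.7 CPM with the combined exposure (log2FC −0.81; edgeR adjusted p = 0.00432). Esrra fell as well before GC correction, from 15.1 ± 4.91 to 7.80 ± 2.72 CPM (log2FC −0.96; edgeR adjusted p = 0.00838). After GC correction neither passed (Prdx5 −0.43, edgeR adjusted p = 0.143; Esrra −0.45, edgeR adjusted p = 0.229). Bud23 shares 436 exon bases (12.9%) with Dnajc30 on the opposite strand, and Dnajc30 was at 21.5 ± 2.38 CPM in HFD control and 19.9 ± 0.666 CPM with the combined exposure (log2FC −0.12; edgeR adjusted p = 0.553).

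Trmt1, the dimethylguanosine enzyme (ENSMUSG00000001909, chromosome 8, 84686307 to 84699808, plus strand), was at 32.8, 28.1, 26.7, 24.8 and 28.1 CPM in the control mice and at 19.2, 15.97, 19.0, 14.6 and 17.1 CPM with the combined exposure. The groups did not overlap, as for 18.8% of all genes, with a log2FC of −0.71 (SE 0.128; edgeR adjusted p = 0.00103). The GC content of Trmt1 (56%), Bud23 (56.2%) and Trmt112 (56.7%) falls in the range from 56% to 58%, where the median log2FC of all genes was −0.53 and 43.5% were called lower. After GC correction Trmt1 was at −0.33 (SE 0.0999; edgeR adjusted p = 0.0611), and with the trend over genes of at least 1 CPM at −0.27, which passed (edgeR adjusted p = 0.044). Bud23, Trmt1, Trmt112 and Trmt11 passed in all 20 of the uncorrected fits that left out 1 library each.

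Trmt11, the N2-methylguanosine enzyme that needs Trmt112 (ENSMUSG00000019792, chromosome 10, 30534225 to 30600749, minus strand), moved in the opposite direction to Trmt112. It was at 5.36, 6.11, 5.11, 5.88 and 5.20 CPM in the control mice and at 8.67, 7.67, 6.23, 8.51 and 9.90 CPM with the combined exposure. The groups again did not overlap, as for 18.8% of all genes. The log2FC was 0.57 (SE 0.132; edgeR adjusted p = 0.00344). Its GC content of 39.0% was the lowest of the members, and among the 1413 genes under 42% the median log2FC was 0.56, with 53.6% called higher. After GC correction the Trmt11 log2FC was −0.02 (SE 0.134; edgeR adjusted p = 0.957).

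Trmt6, the partner subunit of Trmt61a (ENSMUSG00000037376, chromosome 2, 132804207 to 132816055, minus strand), was at 13.7, 13.3, 13.6, 14.5 and 13.2 CPM in the control mice and at 15.7, 16.1, 15.7, 18.3 and 15.2 CPM with the combined exposure (log2FC 0.25, SE 0.0819; edgeR adjusted p = 0.0256). Trmt10a, the cytosolic guanosine methyltransferase (ENSMUSG00000004127, chromosome 3, 138143448 to 138159821, plus strand), was at 4.52, 5.08, 5.26, 5.09 and 4.60 CPM in the control mice and at 5.63, 6.13, 6.23, 5.78 and 6.33 CPM with the combined exposure (log2FC 0.29, SE 0.103; edgeR adjusted p = 0.0338). In both genes the groups did not overlap, as for 18.8% of all genes. These were the least stable calls of the set: Trmt6 passed in 16 and Trmt10a in 11 of the 20 fits that left out 1 library each. Neither passed when the libraries with the lowest and the highest GC slope were left out together (edgeR adjusted p = 0.12 for Trmt6 and 0.0991 for Trmt10a). That fit called 5 members and 3264 genes. After GC correction Trmt6 was at −0.04 (edgeR adjusted p = 0.828) and Trmt10a at −0.06 (edgeR adjusted p = 0.849). Trmt10a shares 457 exon bases (5.73%) with Mttp on the opposite strand, which was at 353.8 ± 73.2 CPM in HFD control and 403.2 ± 32.2 CPM with the combined exposure (log2FC 0.19; edgeR adjusted p = 0.364).

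The other members did not pass the test with the combined exposure. Trmt61a, the catalytic subunit for 1-methyladenosine (ENSMUSG00000060950, chromosome 12, 111678105 to 111683902, plus strand), varied widely, from 2.56 to 5.34 CPM in HFD control and from 1.54 to 3.83 CPM with the combined exposure (log2FC −0.46, SE 0.278; edgeR adjusted p = 0.219). Trmt5, which methylates the base beside the anticodon (ENSMUSG00000034442, chromosome 12, 73280011 to 73286710, minus strand), was at 7.65 to 9.74 CPM in HFD control and 9.03 to 10.9 CPM with the combined exposure (log2FC 0.20, SE 0.0947; edgeR adjusted p = 0.103). Trmt10c, the methyltransferase subunit of mitochondrial RNase P (ENSMUSG00000044763, chromosome 16, 56032609 to 56037819, minus strand), was at 13.4 to 29.1 CPM in HFD control and 19.2 to 25.9 CPM with the combined exposure (log2FC 0.19, SE 0.168; edgeR adjusted p = 0.425). After GC correction the log2FC was 0.08 for Trmt61a, −0.14 for Trmt5 and −0.21 for Trmt10c, each with the opposite sign to the uncorrected value.

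**Figure D2:**
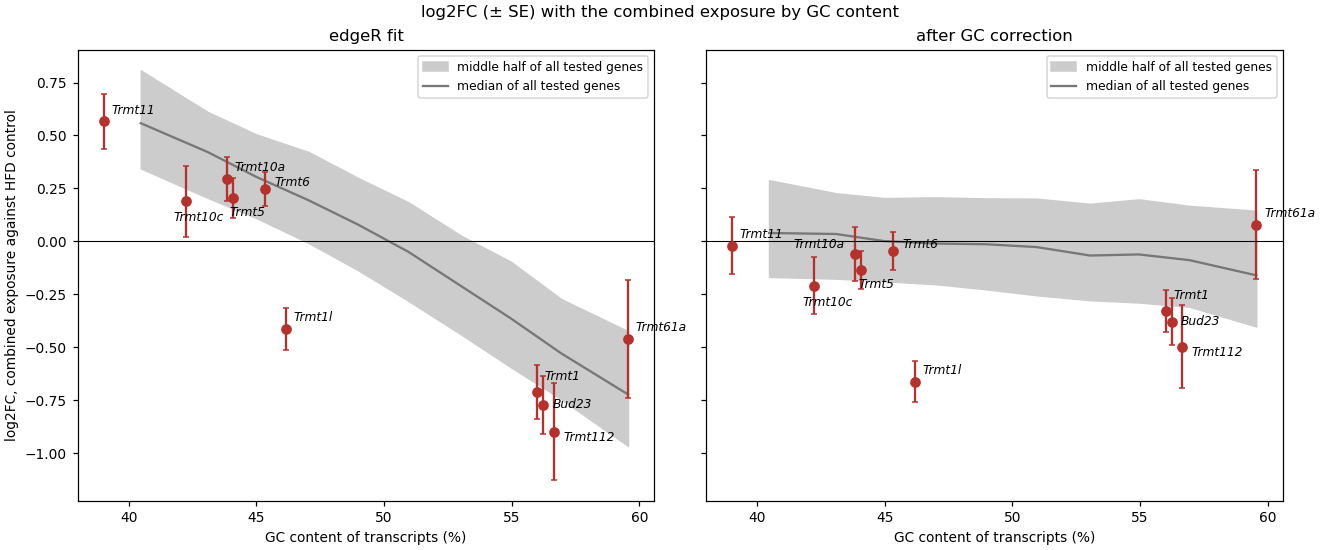
log2FC with the combined exposure relative to HFD control (vertical axis, error bars are SE) against the GC content of the transcripts in percent (horizontal axis), before GC correction on the left and after it on the right, with the correction fitted over all tested genes. The grey line and band are the median and the quartiles of all tested genes. On the left the members above 56% GC lie below 0 and those under 46% lie above 0, and Trmt1l, at 46.2%, lies below the band in both panels.

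**Figure D3:**
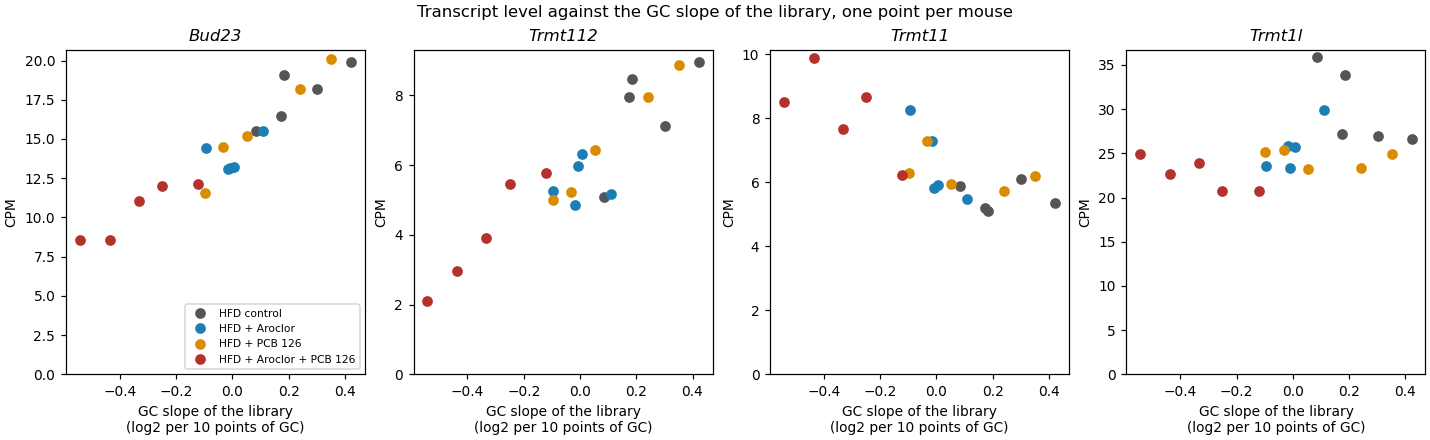
CPM of Bud23, Trmt112, Trmt11 and Trmt1l (vertical axes, from 0) against the GC slope of the library (horizontal axis, log2 per 10 percentage points of GC content), with 1 point per mouse coloured by exposure group. These 4 genes were chosen after their values were seen. The combined-exposure libraries have the lowest slopes (−0.543 to −0.121), with Bud23 at 8.54 to 12.1 CPM, and the Trmt1l values of the PCB 126 mice lie between 23.3 and 25.4 CPM over slopes of −0.0975 to 0.352.

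Neither single exposure changed a member past the threshold. With Aroclor, 0 members and 0% of all genes were called, and with an unadjusted p under 0.05 there were 5 members and 2677 of 15522 genes. DESeq2 called 135 genes and 0 members in this comparison. After GC correction 0 members were called by edgeR with either single exposure, against 0 genes with Aroclor and 47 of 15522 genes with PCB 126. An unadjusted p under 0.05 was then reached by 3 members and 1824 genes with Aroclor, and by 2 members and 2192 genes with PCB 126. The mice of Aroclor and HFD control did not overlap for 3 members (Trmt1, Trmt10a and Bud23), against 2.94% of all genes, and on GC-corrected values for none of the members. Trmt1 had the lowest adjusted p of the members with Aroclor, at 18.7 to 23.1 CPM, below all control mice (log2FC −0.41, SE 0.127; edgeR adjusted p = 0.195), and was at −0.27 after GC correction (edgeR adjusted p = 0.375). With PCB 126, 0 members were called against 0.116% of all genes, with 2 members and 2280 genes at an unadjusted p under 0.05. DESeq2 called 0 members and 320 genes here. The member with the lowest adjusted p for PCB 126 was Trmt10a. It was at 6.32, 4.99, 6.36, 6.93 and 6.65 CPM in the PCB 126 mice, of which 1 lay within the control range (log2FC 0.35, SE 0.103; edgeR adjusted p = 0.149). After GC correction it was at 0.32 (edgeR adjusted p = 0.256). Trmt10a was at 5.32 to 6.53 CPM with Aroclor, above all control mice (log2FC 0.25, SE 0.103; edgeR adjusted p = 0.239), and at 0.10 after GC correction (edgeR adjusted p = 0.763). Bud23 was at 13.1 to 15.5 CPM with Aroclor, below all control mice (log2FC −0.36, SE 0.135; edgeR adjusted p = 0.218; −0.21 after GC correction, adjusted p = 0.459), and at 11.6 to 20.1 CPM with PCB 126, overlapping them (log2FC −0.17, SE 0.135; edgeR adjusted p = 0.591). Trmt1l with PCB 126 was at −0.30 after GC correction (edgeR adjusted p = 0.172), and it passed when the GC slope was a covariate (log2FC −0.35; edgeR adjusted p = 0.0445). With that covariate 676 genes passed for PCB 126. Since the 3 exposures share the control mice, their values are not independent of each other.

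**Figure D4:**
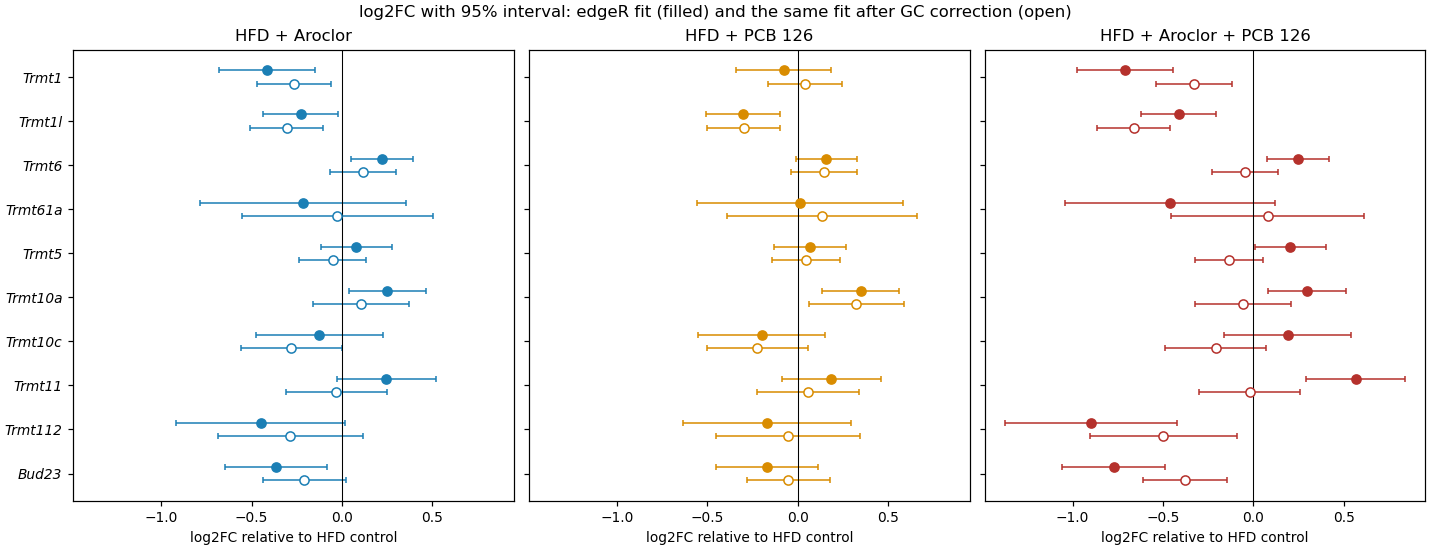
log2FC of each member relative to HFD control (horizontal axis) with its 95% interval, in 1 panel per exposure group; filled points are the edgeR fit and open points the same fit after GC correction over all tested genes. With the combined exposure the open points of 9 members lie closer to 0 than or on the other side of 0 from the filled ones, and that of Trmt1l lies farther from 0.

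Addition of Aroclor to PCB 126 was read from the combined exposure against PCB 126 alone. The GC slopes of the combined exposure overlapped with those of neither single exposure, so exposure and GC slope cannot be told apart here either. Trmt1 (log2FC −0.63, SE 0.128; edgeR adjusted p = 0.0136), Trmt112 (log2FC −0.73, SE 0.229; edgeR adjusted p = 0.037) and Bud23 (log2FC −0.60, SE 0.137; edgeR adjusted p = 0.0144) fell, so 3 members were called against 16.7% of all genes. In all of these genes the mice of the groups overlapped, and after GC correction 0 members and 0 genes passed, with 6 members and 3102 genes at an unadjusted p under 0.05. The calls rested on few libraries: without PCB 126 replicate 3 there were 0 members called, and without PCB 126 replicate 4 or combined-exposure replicate 5 there was 1. For Trmt1l the log2FC between these groups was −0.11 before GC correction, with a 95% interval of −0.32 to 0.09 (edgeR adjusted p = 0.424), and −0.36 after it, with an interval of −0.56 to −0.16, which did not pass either (edgeR adjusted p = 0.0941). Against Aroclor alone, the combined exposure changed 0 members past the threshold by edgeR, against 0.412% of all genes. An unadjusted p under 0.05 was reached by 3 members and 3639 genes. DESeq2 called 1 member (Bud23, DESeq2 adjusted p = 0.0494) and 1343 genes. After GC correction 0 members and 3 of all genes passed in this comparison. An unadjusted p under 0.05 was then reached by 1 member (Trmt1l, log2FC −0.36, edgeR adjusted p = 0.306) and 1565 genes. The interaction (the departure of the combined log2FC from the added single log2FC values) called 0 members and 0% of all genes by edgeR. DESeq2 called 0 members and 1 gene. By edgeR, 2 members (Trmt10c and Trmt10a) and 1845 genes had an unadjusted p under 0.05. After GC correction the interaction called 0 members and 0 genes by edgeR. Trmt10a (−0.49; edgeR adjusted p = 0.336) and Trmt6 (−0.31; edgeR adjusted p = 0.373) had an unadjusted p under 0.05, as had 1651 of all genes.

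Transcript balance was measured for complex partners and for the paralogs Trmt1 and Trmt1l, as the log2 ratio of CPM in the same library. These ratios are of RNA and not of protein. The groups were compared by a two-sided exact permutation test over mice, with adjustment over 12 tests (4 pairs, 3 exposures). With 5 mice against 5 the smallest p this test can give is 0.00794, and a single separated ratio among the 12 would have an adjusted p of 0.0952, so no ratio could pass alone, and none did. The ratio of Trmt11 to Trmt112 moved most, from −0.42 ± 0.41 (SD, n = 5) in HFD control to 1.10 ± 0.78 with the combined exposure, a difference of 1.52 (two-sided exact permutation p = 0.0159, adjusted p = 0.19). With Aroclor alone the difference was 0.66 (exact permutation p = 0.0397, adjusted p = 0.222). In both exposures the mice overlapped with HFD control, and for the combined exposure on GC-corrected values the difference was 0.52 (exact permutation p = 0.127, adjusted p = 0.508). The ratio of Bud23 to Trmt112 was 1.27 ± 0.22 in HFD control and 1.45 ± 0.38 with the combined exposure, a difference of 0.18 (exact permutation p = 0.397, adjusted p = 0.529). The ratio of Trmt61a to Trmt6 was lower by 0.74 (difference −0.74; exact permutation p = 0.0556, adjusted p = 0.222) before GC correction and higher by 0.12 after it (exact permutation p = 0.683, adjusted p = 0.933). For the ratio of Trmt1 to its paralog Trmt1l, the difference between the combined exposure and HFD control was −0.31 (exact permutation p = 0.159, adjusted p = 0.438). With GC correction this difference turned to 0.33 (exact permutation p = 0.0317, adjusted p = 0.19). With PCB 126 alone the difference from HFD control was 0.20 (exact permutation p = 0.349, adjusted p = 0.524) and, with GC correction, 0.32 (exact permutation p = 0.0317, adjusted p = 0.19).

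**Figure D5:**
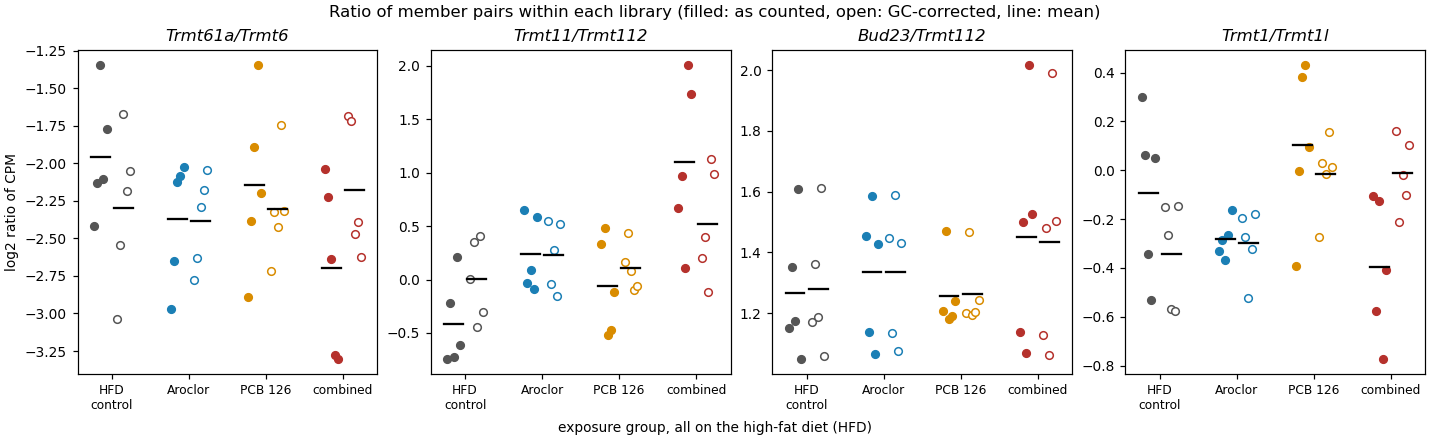
log2 ratio of the CPM of 4 member pairs within each library (vertical axis) by exposure group, 5 mice per group; filled points are as counted, open points are GC-corrected over all tested genes, and black lines are means. The mean Trmt11 to Trmt112 ratio with the combined exposure is 1.10 as counted and 0.52 on GC-corrected values, and that of Bud23 to Trmt112 is 1.45 and 1.43.

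The profile of each member over the 20 libraries was compared with 11341 genes of at least 1 CPM, by the mean absolute difference of standardized log2 CPM, as a description in which all genes share the libraries and their GC slopes. Bud23 ranked 435th in likeness to Trmt112, and Trmt112 ranked 381st in likeness to Bud23, with a mean difference of 0.338 SD. The nearest gene was Polr2e for Trmt112 (0.149 SD) and Psmc3 for Bud23 (0.178 SD). Trmt11 ranked 11238th from Trmt112, and Trmt6 ranked 9785th from Trmt61a. The nearest gene to Trmt1l was Bag3 (0.415 SD), a co-chaperone of Hsp70, which was at 67.1 ± 36.1 CPM (SD, n = 5) in HFD control and 26.3 ± 3.07 CPM with the combined exposure (log2FC −1.35; edgeR adjusted p = 0.00195; −0.97 after GC correction, adjusted p = 0.0558). Bag3 was at 26.3 ± 2.46 CPM with PCB 126 alone (log2FC −1.35; edgeR adjusted p = 0.0506). The nearest gene to Trmt10a was Slc46a3 (0.579 SD), which rose with PCB 126 (log2FC 1.54; edgeR adjusted p = 0.000294). The nearest genes of the others were Ccnd3 for Trmt1, Pex2 for Trmt5, Stau2 for Trmt6, Gar1 for Trmt61a, Ints6 for Trmt10c and Pex3 for Trmt11.

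Other enzymes of the pathway, from lists chosen with earlier results known, were also called in both directions with the combined exposure, in which 32.8% of all genes were called. Of 5 further partners of Trmt112, 3 rose: Alkbh8, the wobble uridine methyltransferase (log2FC 0.50; edgeR adjusted p = 0.00215), Mettl5, an 18S rRNA adenosine methyltransferase (0.35; edgeR adjusted p = 0.0174) and Thumpd3, a tRNA guanosine methyltransferase (0.26; edgeR adjusted p = 0.0327). The values of N6amt1 (0.23) and Thumpd2 (0.33) did not pass. The median of the 5 was 0.33 and, after GC correction, 0.02, with 0 called. The partners of Trmt10c in mitochondrial RNase P, Hsd17b10 (log2FC −0.28; edgeR adjusted p = 0.1) and Prorp (0.20; edgeR adjusted p = 0.11), did not pass. Of 21 further tRNA methyltransferases and their subunits tested, 6 fell and 3 rose. Those that fell were Wdr6 (−0.91), Wdr4 (−0.76), Trmt44 (−0.63), Trmo (−0.56), Trmt2a (−0.56) and Ftsj1 (−0.23), and those that rose were Trdmt1 (0.99), Nsun3 (0.58) and Trmt2b (0.43). After GC correction 0 of the 21 passed, with a median log2FC of −0.10. Trmt61b was not analysed here.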

How the data were processed

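Per the file headers and the study's methods, the authors sequenced stranded polyadenylated RNA libraries of 5 livers per group and deposited raw counts per Ensembl gene. The submitters' processing notes name FastQC 0.10.1, STAR 2.6, HTSeq 0.10.0 and GRCm38.p6; whether counting used strand is not given in the sources used here. Symbols, coordinates, exon lengths and GC content of exons were taken from GENCODE M21 for 21754 of the 21780 genes. The 15522 genes with 10 or more counts summed over libraries were tested with edgeR 4.0.16 in R 4.3.3 (TMM, quasi-likelihood test, 1 coefficient per group, all 20 libraries, 16 residual degrees of freedom), with Benjamini-Hochberg adjustment over all tested genes and a threshold of 0.05. CPM and FPKM were computed here from the counts. For GC correction, a natural spline (6 degrees of freedom) over GC content was fitted to each library's deviation from the mean log2 CPM and used as an offset. The fit was checked on simulated data.

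The members and gene lists were chosen with earlier results of these data known. The named genes are the members, listed pathway genes (values for those past the threshold and for the shorter lists), the exposure markers and the gene of the nearest profile to each member. Replicates are separate mice, and same-numbered mice are different animals, so the numbers do not pair them. The counts of the 40 pairs of mice within groups differed by more than sampling noise (chi-square per degree of freedom at least 19.66). Sequencing runs are not named in the sources used here, so no within-batch value was computed. Alternatives were another normalization (RLE), no filter, a filter of at least 1 FPKM in at least 3 libraries (8995 genes), DESeq2 1.42.0, only the groups compared, a replicate block, GC and length corrections, the GC slope as a covariate and leaving out each library. The corrections over the 11341 genes of at least 1 CPM, and leaving out the libraries with the lowest and the highest GC slope, were added after seeing the data. Fold changes of RNA counts are relative to the total of each library.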

Additional observations from a re-analysis of the deposited data

How the results depend on the processing

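Trmt1, Trmt1l, Trmt112 and Bud23 stayed lower with the combined exposure than in HFD control under every alternative run, except that Trmt112 was higher (log2FC 0.30, and 0.22 with the slope over genes of at least 1 CPM) with the GC slope as a covariate. The log2FC values followed under the alternatives were those of every member for the combined exposure against HFD control. Bud23, Trmt10a and Trmt1l with each single exposure were also followed, as were Bud23, Trmt1 and Trmt112 against PCB 126. Of these values, 537 kept their direction and their side of the threshold, 76 lost the call, 3 gained it and 46 changed direction. Values not followed could turn as well, such as Trmt1 with PCB 126 (−0.16 to 0.02 when 1 library was left out). For 4 GC settings in turn (GC correction, GC and length correction, replicate block with GC correction, GC slope covariate), the number of members called for the combined exposure against HFD control was 1, 2, 1 and 0, and the number of genes was 668, 658, 933 and 335. With the trend over genes of at least 1 CPM, run after those calls had been seen, the numbers were 3, 3, 3 and 1 members, and 1419, 1474, 1467 and 523 genes. Leaving out the libraries with the lowest and highest GC slope (HFD control replicate 1 and combined-exposure replicate 4), also added after seeing the data, gave 3264 genes. Against PCB 126, the first 4 settings called 0, 0, 0 and 0 members and 0, 0, 153 and 0 genes, the added ones 0, 0, 1 and 0 members and 0, 64, 201 and 0 genes, and the extremes left out 710 genes. The cause of these differences was not tested.

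Among the values followed, the direction turned for these members under the same settings. The log2FC of Trmt5 was −0.136, −0.0658, −0.136 and −0.0743, and −0.159, −0.0782, −0.16 and −0.0665 under the added ones. That of Trmt6 was −0.0449, −0.0457 and −0.0441 (added −0.0655, −0.0666 and −0.066), that of Trmt10a −0.058, −0.103 and −0.0617 (added −0.0824, −0.126 and −0.0875) and that of Trmt11 −0.0212, −0.0243 and −0.0184 (added −0.086, −0.0823 and −0.0802), all 3 staying positive with the slope covariate. Trmt61a was at 0.0784, 0.0933, 0.12 and 0.32 (added 0.17, 0.18, 0.21 and 0.24) and Trmt10c at −0.21, −0.18, −0.20 and −0.56 (added −0.24, −0.20, −0.23 and −0.52). Trmt112 against PCB 126 was at 0.20 and 0.15 with the slope covariate. With GC correction the difference of the Trmt61a to Trmt6 ratio from HFD control (combined exposure) turned to 0.12. That of the Trmt1 to Trmt1l ratio turned to 0.0433 (Aroclor) and 0.33 (combined exposure).

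For PCB 126, 1 member was called with the slope covariate, under either slope, and 1 with the replicate block and the added GC trend. Genes called for PCB 126 were 47 with the FPKM filter, 320 with DESeq2, 4 with only the groups compared, 101 with the replicate block, 47, 60, 145 and 676 under the 4 GC settings, 50, 83, 116 and 760 under the added ones and 75 with the extremes left out. Genes called for Aroclor were 135 with DESeq2, 26 with the replicate block, 25 (added 21) with block and GC correction and 447 (added 484) with the slope covariate. For the combined exposure against Aroclor, DESeq2 called 1 member, and genes called were 107 with RLE, 13 with no filter, 636 with the FPKM filter, 1343 with DESeq2, 0 with only the groups compared, 475 with the block, 3, 3, 40 and 0 under the 4 GC settings, 5, 14 and 2 under the added GC, GC and length, and slope settings, and 0 with the extremes left out. For the interaction, DESeq2 called 1 gene, the replicate block 38, and block with GC correction 44 (added 38).

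Leaving out 1 library at a time, 5 to 7 members and 3894 to 5679 genes were called for the combined exposure against HFD control. Against PCB 126, 0 to 4 members were called (0 without PCB 126 replicate 3, 1 without PCB 126 replicate 4 or combined-exposure replicate 5). Trmt6 lost its call without HFD control replicate 2, Aroclor replicate 4 or 5, or combined-exposure replicate 4 (adjusted p up to 0.221), and Trmt10a without HFD control replicate 1, 2 or 5, Aroclor replicate 4 or 5, or combined-exposure replicate 2, 3, 4 or 5 (adjusted p up to 0.1). Trmt10a also lost it with RLE and no filter, and both genes lost it with only the groups compared. Genes called ranged from 0 to 2 for Aroclor (2 without Aroclor replicate 2), from 4 (without PCB 126 replicate 2) to 127 (without PCB 126 replicate 3) for PCB 126, from 4 (without PCB 126 replicate 3) to 3416 for the combined exposure against PCB 126, and from 0 to 1036 (without combined-exposure replicate 3) against Aroclor. The difference of the Bud23 to Trmt112 ratio with PCB 126 ranged from −0.0644 to 0.0755.

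Same-numbered mice are different animals, and 13 of 30 same-numbered pairs had deviations correlated above 0.1 (−0.26 to 0.744). With the replicate block, 6 members were called for the combined exposure against HFD control, Trmt10a being lost (edgeR adjusted p = 0.0546), and 3 against PCB 126. Without the block, 32.8% of all genes passed in the first of these comparisons and 16.7% in the second. The shares with the block are not given here. The FPKM filter gives no value for Trmt10a, whose level was under 1 FPKM. The lowest counts of a member in a library were those of Trmt61a (44 to 145 per library) and Trmt112 (58 to 343). The part of depth in the spread of these genes was not tested.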
